A study of Mus musculus with 37 samples.

Results

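The insulin-like growth factor (IGF) family described here comprises 10 genes, which were matched by gene symbol in the bulk RNA-Seq tables and by Ensembl identifier in the single-cell tables. They are the ligands Igf1 and Igf2, the receptors Igf1r and Igf2r, and 6 IGF binding proteins, Igfbp2 to Igfbp7. These 10 were among 30892 genes in the cardiac fibroblast (CF) table, 20158 genes in the table of neonatal rat ventricular myocytes (NRVMs) and 31053 genes in the single-cell tables. The study asked how products of myocytes exposed to ENPP1, an ectonucleotidase that hydrolyzes extracellular ATP to AMP, act on CFs, and how loss of ENPP1 in CFs alters the injured heart. CFs were wild-type C57BL/6 mouse cells of an SV40-immortalized line, kept in serum-free medium that contained insulin before they received myocyte conditioned medium (MCndM). MCndM came from NRVMs given vehicle, ENPP1, ATP, ENPP1 with ATP (ENPP1+ATP) or AMP, and CF RNA was taken after 24 or 48 hours, with 2 libraries in each of 10 groups. Wild-type Sprague-Dawley NRVMs received the same 5 media for 24 hours, with 3 libraries in each of 5 groups.

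The single-cell libraries held nonmyocytes of C57BL/6 hearts harvested 7 days after myocardial infarction, 1 library from ENPP1CKO mice and 1 from control mice labeled wild type. In ENPP1CKO mice both Enpp1 alleles were floxed and a tamoxifen-inducible Cre was driven by the Col1a2 promoter, which is active in fibroblasts. Tamoxifen was given from before to after the injury, and the number of hearts in each library was not given in the sources used here. The study describes its replicates as biological, but the sources used here do not say whether the libraries of a bulk group came from separate cultures or cell isolations, so the p-values below measure only the spread between these libraries.

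IGF-1 and IGF-2 are secreted growth and survival factors. Both signal through the receptor tyrosine kinase encoded by Igf1r, whereas the product of Igf2r binds IGF-2 and carries it to lysosomes. IGFBP-2 to IGFBP-6 hold IGFs with high affinity in the extracellular space and so limit or prolong their access to the receptor, and proteases release the ligand from them. IGFBP-7 is a matrix-associated relative with low affinity for IGFs. In the heart, IGF-1 is made by fibroblasts and macrophages and is known for its effects on myocyte growth and on repair.

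CF libraries held 32184799 to 115824659 reads assigned to genes, and the deepest was vehicle replicate 1 at 24 hours. NRVM libraries held 13481389 to 16977980. The ENPP1CKO single-cell library held 28039559 UMI counts in 7460 barcodes, and the control library held 22746607 in 5347 barcodes. After removal of doublets and low-quality barcodes, 7255 and 5240 cells remained, and 68 barcode sequences occurred in both libraries. All 8 fibroblast markers were detected in CFs and 7 of 7 measured cardiomyocyte markers in NRVMs. NRVM cultures also held fibroblast marker RNA, with a summed level of 22900 to 24300 CPM, the read count scaled to a common library size by trimmed mean of M values (TMM) in vehicle libraries against 24200 to 25000 CPM for cardiomyocyte markers.

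In vehicle CFs at 24 hours the level order ran from Igfbp7 to the barely detected ligand Igf2. Per kilobase of exon, vehicle CFs at 24 hours held 359 to 430 CPM of Igfbp7 and 72.4 to 72.5 CPM of Igf2r. Igf1r followed with a mean of 7.54, Igfbp4 with 7.02, Igfbp3 with 5.15 and Igf1 with 1.85 CPM per kilobase. Each of these levels lay above the next in both libraries. Igfbp5 at 0.352 to 0.748 and Igfbp6 at 0.302 to 0.575 CPM per kilobase overlapped, and Igfbp2 (mean, 0.0692) and Igf2 (mean, 0.046) were lowest. The member of lowest mean differed between groups. It was Igfbp2 in vehicle at 48 hours (mean, 0.0425), where its libraries overlapped those of Igf2. At 24 hours it was Igfbp5 with ENPP1+ATP (mean, 0.119) and AMP (mean, 0.0779), and with AMP its libraries overlapped those of Igfbp2.

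ENPP1+ATP and AMP MCndM lowered 7 of 10 members in CFs at 24 hours, and 4 and 5 members at 48 hours. With ENPP1+ATP MCndM at 24 hours, 7 of 10 members were lower and 1 was higher than with vehicle (edgeR quasi-likelihood test, Benjamini-Hochberg adjusted p under 0.05). This medium changed much of the transcriptome, with 49.1% of 17879 tested genes called and 25.3% called lower. The median log2 fold change was -0.53 over the members and -0.0046 over all tested genes. AMP MCndM gave the same counts, 7 lower and 1 higher, against 52.8% of genes called and 27.5% called lower, with a member median of -0.74. At 48 hours, ENPP1+ATP lowered 4 members and raised 1, against 45.2% called and 24.4% called lower. AMP lowered 5 and raised 1 at 48 hours, against 44.0% called and 22.9% called lower. The member medians at 48 hours were -0.95 and -0.78. Igf1, Igfbp3, Igfbp4 and Igfbp7 were called lower in all 4 of these comparisons, and Igf1, Igfbp4 and Igfbp7 in the corresponding 2 NRVM comparisons as well. The share of all genes called lower jointly in these comparisons is not given here, so the joint counts only describe the members. All comparisons against vehicle within a time point share the same vehicle libraries.

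**Figure D1:**
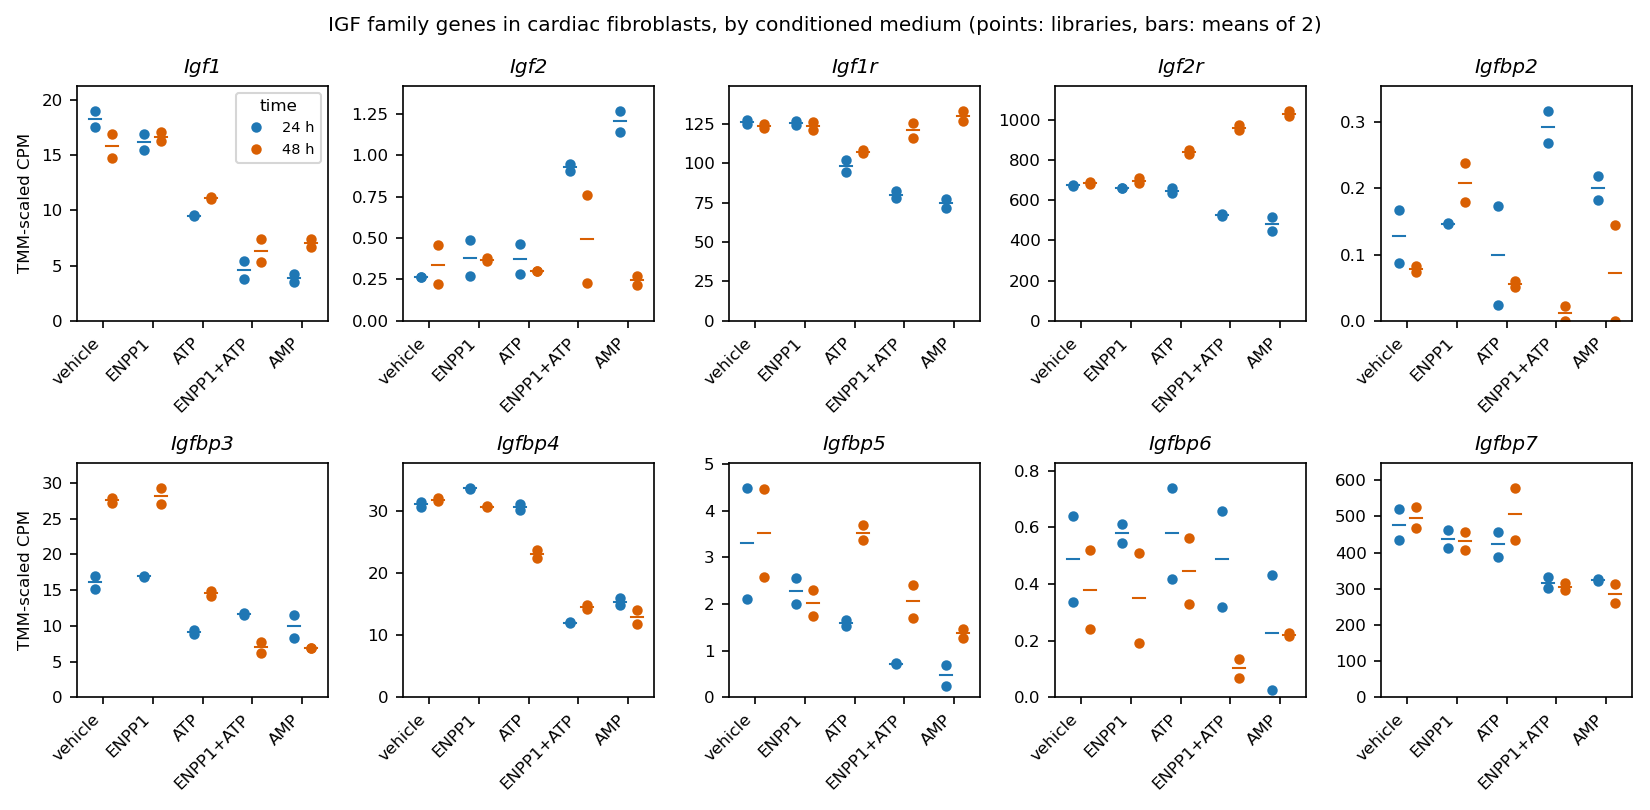
Levels of the 10 family genes in CFs, in TMM-scaled CPM on a linear axis from 0, for each of the 5 conditioned media at 24 hours (blue) and 48 hours (orange), where points are libraries and bars are means of 2. Igf1, Igfbp4 and Igfbp7 sit below vehicle with ENPP1+ATP and AMP at both times, whereas Igf2r sits below vehicle at 24 hours and above it at 48 hours.

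ATP MCndM changed 4 members at 24 hours and 5 at 48 hours, and with ENPP1 MCndM none was called. ATP lowered 4 members at 24 hours (11.1% of genes called, member median, -0.21). At 48 hours it lowered 4 and raised 1 (7.83% of genes called, member median, -0.18). With ENPP1 alone, edgeR called 0 members and 0% of genes at both times. At an unadjusted p under 0.05 there were 0 members and 249 genes at 24 hours, and 1 member, Igfbp5, and 743 genes at 48 hours. DESeq2 also called 0 members at each time.

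Igf1, Igfbp4 and Igfbp7 were the members called lower in all 6 comparisons of ENPP1+ATP or AMP with vehicle, and their promoters are shown for that reason. Each line gives the 250 bases before the RefSeq transcript start on build GRCm38.p6, 5′ to 3′ on the gene's strand. Capitals mark motifs that were searched on both strands. These were the TATA box with the letters TATAAA, the CCAAT box named for its own letters, and the GC box with the letters GGGCGG. Also searched was an AP-1-like pattern with the letters TGANTCA, where N is any base. The last was the core of the cAMP response element with the letters TGACG.
Igf1 promoter: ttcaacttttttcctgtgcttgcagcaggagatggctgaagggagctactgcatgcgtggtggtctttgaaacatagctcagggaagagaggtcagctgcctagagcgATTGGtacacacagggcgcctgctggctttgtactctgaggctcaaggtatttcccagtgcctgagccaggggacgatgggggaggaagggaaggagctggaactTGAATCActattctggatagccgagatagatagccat
Igfbp4 promoter: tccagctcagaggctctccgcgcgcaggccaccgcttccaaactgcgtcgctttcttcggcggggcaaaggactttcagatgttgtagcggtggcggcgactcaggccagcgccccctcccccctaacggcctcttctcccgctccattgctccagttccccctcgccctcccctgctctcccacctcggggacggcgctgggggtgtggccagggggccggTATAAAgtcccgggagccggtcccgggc
Igfbp7 promoter: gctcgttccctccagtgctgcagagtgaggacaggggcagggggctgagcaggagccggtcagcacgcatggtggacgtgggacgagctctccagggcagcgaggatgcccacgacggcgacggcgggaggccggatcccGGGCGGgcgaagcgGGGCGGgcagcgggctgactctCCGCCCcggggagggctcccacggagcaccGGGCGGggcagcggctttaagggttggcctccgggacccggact
The Igf1 window lies at chr10:87860861-87861110 on the plus strand, inside the annotated gene (chr10:87858265-87937042). It holds CCAAT on the opposite strand, beginning 142 bases before the start, and the AP-1-like pattern, as TGAATCA, 37 bases before it. The Igfbp4 window, chr11:99040994-99041243 on the plus strand, adjoins the gene (chr11:99041244-99054392) and holds TATAAA 28 bases before the start. The Igfbp7 window, chr5:77408046-77408295 on the minus strand, precedes the gene at chr5:77349240-77408041 and holds GGGCGG at 110, 96, 74 and 44 bases before the start. The GGGCGG at 74 bases lies on the opposite strand. The 3 windows share no searched motif. Over 32851 promoter windows of the same length, 12.4% held TATAAA, 33.8% CCAAT, 32.7% GGGCGG, 6.75% TGANTCA and 17.8% TGACG.

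Igf1, the main ligand in this setting, was lower with medium from NRVMs given ATP, ENPP1+ATP or AMP. At 24 hours its level in the 2 libraries was 17.56 and 19 CPM with vehicle, 17.0 and 15.4 with ENPP1, 9.51 and 9.54 with ATP, 3.82 and 5.39 with ENPP1+ATP, and 3.55 and 4.25 with AMP. The ATP libraries lay between vehicle and the other 2 media, without overlap. Against vehicle, Igf1 changed by a log2 fold change of -0.94 ± 0.14 (SE, adjusted p = 2.76e-05) with ATP, -1.98 ± 0.15 (adjusted p = 3.86e-11) with ENPP1+ATP and -2.21 ± 0.14 (adjusted p = 3.33e-12) with AMP. At 48 hours the vehicle libraries held 14.7 and 17.0 CPM, ATP 11.19 and 11.01, ENPP1+ATP 7.41 and 5.30, and AMP 7.45 and 6.66. ATP again lay between vehicle and the other 2 media, which overlapped each other, and the distances from vehicle were smaller, with log2 fold changes of -0.51 for ATP (adjusted p = 0.0176), -1.31 for ENPP1+ATP (adjusted p = 4.22e-08) and -1.17 for AMP (adjusted p = 2.17e-07). The ATP call at 48 hours was lost when either ATP library or vehicle replicate 2 was left out (adjusted p, 0.113 to 0.232).

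Igf2 moved the other way at 24 hours but stayed near its detection limit. Libraries held 0.263 and 0.264 CPM with vehicle, 0.905 and 0.951 with ENPP1+ATP, and 1.14 and 1.27 with AMP, which rests on counts of 11 and 30, 37 and 42, and 47 and 97 reads. ENPP1+ATP raised Igf2 by 1.81 ± 0.51 on the log2 scale (adjusted p = 0.00474) and AMP by 2.19 ± 0.50 (adjusted p = 0.000709), and the groups did not overlap. At 48 hours the ENPP1+ATP libraries held 0.229 and 0.758 CPM and the AMP libraries 0.216 and 0.271 CPM, which overlapped vehicle at 0.221 and 0.458 CPM. Igf2 was not called at that time, and its 95% interval against vehicle was -0.58 to 1.63 for ENPP1+ATP and -1.64 to 0.72 for AMP.

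The 2 receptors fell together at 24 hours and parted at 48 hours. Igf1r, the signaling receptor, held 125 and 128 CPM with vehicle at 24 hours, 94.5 and 102 with ATP, 82.3 and 78.2 with ENPP1+ATP, and 72.0 and 77.1 with AMP. Igf2r, the clearance receptor, held 674 and 675 CPM with vehicle, 636 and 660 with ATP, 530 and 520 with ENPP1+ATP, and 445 and 517 with AMP. For both genes the ENPP1+ATP and AMP libraries lay below all vehicle libraries. Igf1r fell by 0.66 ± 0.05 on the log2 scale with ENPP1+ATP (adjusted p = 1.44e-10) and by 0.76 ± 0.05 with AMP (adjusted p = 6.77e-12). Igf2r fell by 0.36 ± 0.05 (adjusted p = 2.03e-06) and by 0.49 ± 0.05 (adjusted p = 1.55e-08), and with ATP its change of -0.06 was not called (95% interval, -0.17 to 0.05).

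By 48 hours Igf1r was back near vehicle and Igf2r exceeded it. Igf1r held 125 and 123 CPM with vehicle, 116 and 126 with ENPP1+ATP, and 127 and 133 with AMP, and the log2 fold changes of -0.03 (95% interval, -0.14 to 0.08) and 0.07 (-0.04 to 0.18) were not called. Igf2r held 693 and 683 CPM with vehicle, 852 and 833 with ATP, 952 and 974 with ENPP1+ATP, and 1020 and 1045 with AMP. Every Igf2r library of these 3 media lay above the vehicle libraries. Igf2r rose by 0.29 ± 0.05 with ATP (adjusted p = 0.00037), 0.49 ± 0.05 with ENPP1+ATP (adjusted p = 2.39e-08) and 0.59 ± 0.05 with AMP (adjusted p = 9.1e-10). Igf1r with ATP remained lower at -0.20 (adjusted p = 0.0127), a call that was lost when either ATP library or either vehicle library was left out (adjusted p, 0.0615 to 0.193).

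Igfbp3 and Igfbp4 encode the binding proteins with called decreases at both times that kept their call without any single library. Igfbp3 carries most IGF in the circulation. It held 17.0 and 15.2 CPM with vehicle at 24 hours, 9.45 and 8.82 with ATP, 11.8 and 11.5 with ENPP1+ATP, and 11.5 and 8.36 with AMP. At 48 hours vehicle had 27.2 and 27.9 CPM, ATP 14.2 and 14.9, ENPP1+ATP 7.73 and 6.20, and AMP 6.88 and 6.87. Vehicle was thus the highest medium of these 4 at each time and the gap widened, from log2 fold changes of -0.48 ± 0.12 (ENPP1+ATP, adjusted p = 0.00132) and -0.72 ± 0.12 (AMP, adjusted p = 9.67e-06) to -1.98 ± 0.12 (adjusted p = 1.41e-12) and -2.003 ± 0.12 (adjusted p = 1.01e-12). ATP alone lowered Igfbp3 by 0.82 at 24 hours (adjusted p = 2.36e-05) and 0.92 at 48 hours (adjusted p = 3.79e-06). Igfbp4, which in general inhibits IGF action until it is cleaved by PAPP-A, held 30.6 and 31.4 CPM with vehicle at 24 hours, 31.1 and 30.1 with ATP, 12.0 and 11.9 with ENPP1+ATP, and 14.9 and 15.9 with AMP. The ATP libraries overlapped vehicle, and the other 2 media lay below both. Igfbp4 fell by 1.37 ± 0.08 with ENPP1+ATP (adjusted p = 5.02e-13) and by 1.00 ± 0.08 with AMP (adjusted p = 4.55e-11). At 48 hours Igfbp4 held 32.0 and 31.5 CPM with vehicle, 22.4 and 23.6 with ATP, 14.9 and 14.1 with ENPP1+ATP, and 14.1 and 11.8 with AMP. All 3 media were then lower, by 0.47 (adjusted p = 0.000148), 1.13 (adjusted p = 1.41e-11) and 1.30 (adjusted p = 1.11e-12) on the log2 scale.

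Igfbp7 and Igfbp5 also fell, with calls that leaned on single libraries. Igfbp7 held 519 and 434 CPM with vehicle at 24 hours, 333 and 301 with ENPP1+ATP, and 326 and 322 with AMP. The vehicle libraries were the higher ones but differed from each other by more than the treated libraries did. Its log2 fold changes were -0.59 ± 0.15 (adjusted p = 0.00735) and -0.56 ± 0.15 (adjusted p = 0.00931) at 24 hours, and these calls were lost without vehicle replicate 1 (adjusted p, 0.071 and 0.0826). Without ENPP1+ATP replicate 2 the ENPP1+ATP call was lost too (adjusted p = 0.0621). At 48 hours vehicle held 526 and 467 CPM, ENPP1+ATP 317 and 295, and AMP 314 and 259, and the decreases of 0.70 (adjusted p = 0.00305) and 0.79 (adjusted p = 0.00138) kept their call without any single library. Igfbp5, a matrix-binding family member, held 4.49 and 2.11 CPM with vehicle at 24 hours, 1.65 and 1.54 with ATP, 0.710 and 0.724 with ENPP1+ATP, and 0.243 and 0.693 with AMP. Vehicle lay above these 3 media despite a 2-fold spread between its libraries, and it overlapped the ENPP1 libraries at 2.55 and 1.99 CPM. The log2 fold changes were -2.23 ± 0.38 with ENPP1+ATP (adjusted p = 2.47e-05) and -2.73 ± 0.38 with AMP (adjusted p = 1.54e-06). Without vehicle replicate 1 they were -1.56 (adjusted p = 0.00365) and -2.07 (adjusted p = 0.0002), and without AMP replicate 2 the AMP value was -3.79. The call with ATP (-1.08, adjusted p = 0.0416) was lost on leaving out vehicle replicate 1, when the value was -0.41 (adjusted p = 0.771), or either ATP library. At 48 hours vehicle held 4.46 and 2.58 CPM and AMP 1.47 and 1.26, a change of -1.37 (adjusted p = 0.0027) that was -0.91 (adjusted p = 0.0953) without vehicle replicate 1. ENPP1+ATP at 48 hours held 2.41 and 1.71 CPM and was not called (-0.77, 95% interval, -1.48 to -0.07, adjusted p = 0.0698).

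Igfbp2 and Igfbp6 were near their detection limit in CFs, and no direction against vehicle was called. Igfbp2 counts ran from 0 to 14 reads and Igfbp6 counts from 1 to 73 reads per library, and neither was called against vehicle with any medium. Their 95% intervals were wide, for example -0.50 to 3.06 for Igfbp2 and -1.41 to 1.32 for Igfbp6 with ENPP1+ATP at 24 hours.

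Other RNAs of the CFs moved alongside these changes. The summed level of the 8 fibroblast markers was 6800 to 7140 CPM with vehicle at 24 hours, 4900 to 5190 with ATP, 3310 to 3420 with ENPP1+ATP and 2590 to 2810 with AMP. The 8 cell cycle genes summed to 1540 to 1550 CPM with vehicle, 3410 to 3690 with ENPP1+ATP and 3290 to 3650 with AMP. Macrophage markers at 24 hours summed to 3.15 to 3.17 CPM with vehicle, 21.6 to 27.7 with ENPP1+ATP and 46.1 to 46.2 with AMP. At 48 hours fibroblast markers were 6660 to 7030 CPM with vehicle, 3440 to 3660 with ENPP1+ATP and 3650 to 3890 with AMP, and macrophage markers went from 3.83 to 3.93 CPM with vehicle to 56.4 to 66.4 and 62.2 to 72.2 CPM. Smooth muscle or pericyte markers at 48 hours were 128 to 133 CPM with vehicle, 358 to 372 with ENPP1+ATP and 402 to 430 with AMP. No marker of the fibroblast list was at 0 in all libraries. Sums over a list do not show which of its genes moved, or that cells of that type were present. In bulk RNA, fewer cells of a type and less RNA per cell cannot be told apart. The part of these markers in the results on the family was not tested.

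**Figure D2:**
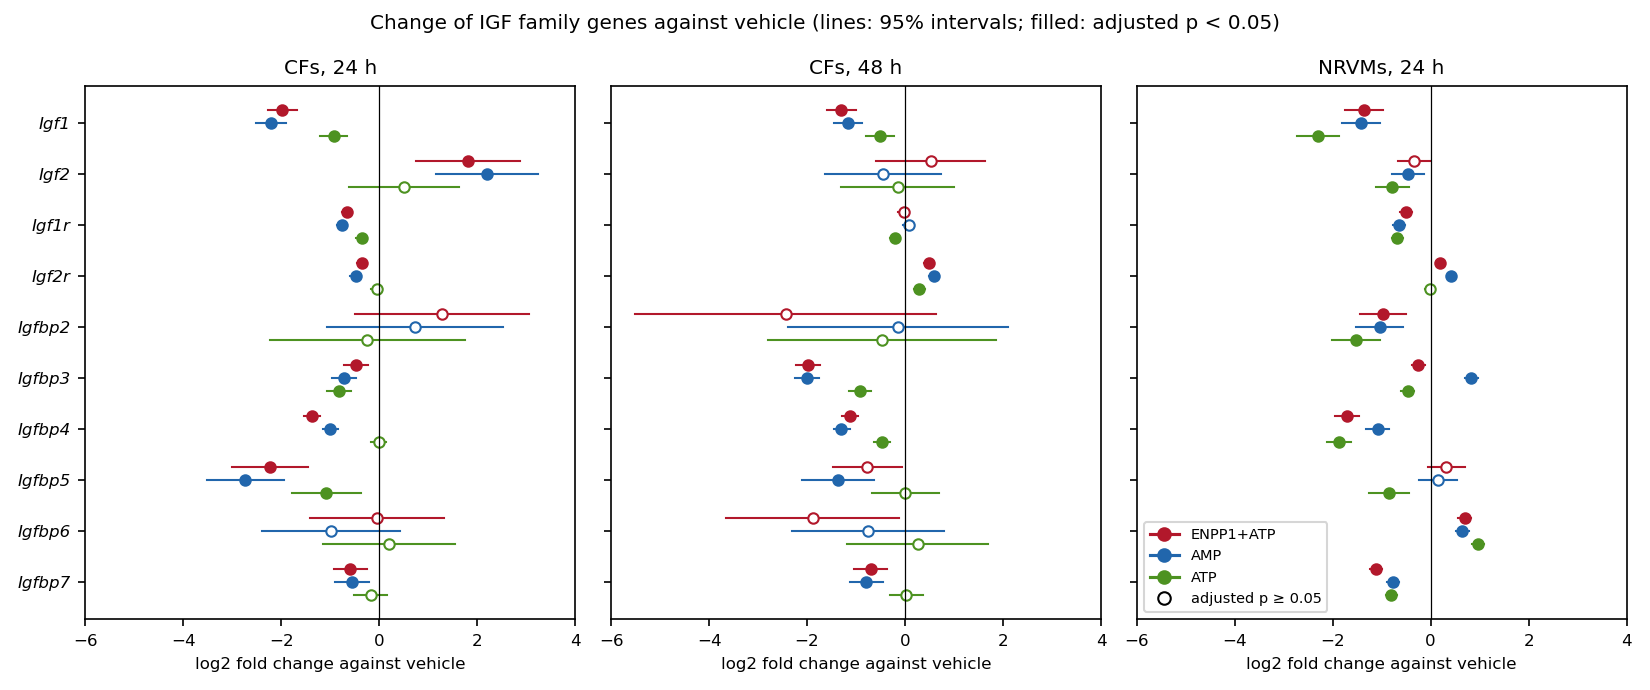
Log2 fold change of each family gene against vehicle (horizontal axis) in CFs at 24 hours, CFs at 48 hours and NRVMs at 24 hours, with 95% intervals as lines and filled points where the adjusted p is under 0.05. Igf1 lies left of 0 for ENPP1+ATP, AMP and ATP in all 3 panels, from -2.30 with ATP in NRVMs to -0.51 with ATP in CFs at 48 hours, whereas Igf2r lies left of 0 in CFs at 24 hours and right of 0 at 48 hours.

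ENPP1+ATP was then set against ATP alone, a pair of media that differ by the added enzyme. At 24 hours 8 members were called, 2 higher and 6 lower (43.9% of genes called). Igfbp4 had a log2 fold change of -1.355 ± 0.08 (adjusted p = 2.85e-12) and Igf1 one of -1.045 ± 0.15 (adjusted p = 3.75e-06). Igfbp3 was higher with ENPP1+ATP than with ATP at 24 hours (0.35, adjusted p = 0.0238) and lower at 48 hours (-1.06, adjusted p = 2.11e-07). The 24-hour calls of Igf2, Igfbp3 and Igfbp5 were lost when any 1 of the 4 libraries was left out, and 4 or 5 members were then called. At 48 hours 7 members were called, 2 higher (Igf1r and Igf2r) and 5 lower (39.5% of genes called), and 4 to 6 remained past the threshold with 1 library left out. The lower one of lowest count, Igfbp6, held 3 and 5 reads with ENPP1+ATP against 28 and 13 with ATP.

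Between AMP and ENPP1+ATP media 1 member was called at 24 hours and 0 at 48 hours. With 2 libraries in each group, the lack of a call does not show equal values. At 24 hours only Igfbp4 was called, at 0.37 ± 0.08 higher with AMP (adjusted p = 0.00815; 6.25% of genes called), and that call was lost without either ENPP1+ATP library or AMP replicate 2 (adjusted p, 0.066 to 0.0697). At 48 hours edgeR and DESeq2 each called 0 members, 0 members had an unadjusted p under 0.05, and edgeR called 0.162% of genes (2460 genes had an unadjusted p under 0.05). The 95% interval of the difference at 48 hours was -0.17 to 0.46 for Igf1, -0.01 to 0.21 for Igf1r and -0.01 to 0.21 for Igf2r. For Igfbp3 it was -0.30 to 0.25, for Igfbp4 -0.34 to 0.01 and for Igfbp7 -0.44 to 0.25, so differences of these sizes were not excluded. Intervals of Igf2, Igfbp2, Igfbp5 and Igfbp6 are not given here.

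The change between 24 and 48 hours depended on the medium. In vehicle, Igfbp3 was the 1 member called, and it rose from 15.2 and 17.0 to 27.2 and 27.9 CPM (log2 fold change, 0.77 ± 0.11, adjusted p = 0.000125; 4.88% of genes called). In ENPP1+ATP 8 members were called, 5 higher and 3 lower (40.7% of genes called), and in AMP 7 were called, 4 higher and 3 lower (43.1% of genes called). Igf1r rose by 0.59 in ENPP1+ATP (adjusted p = 2.26e-09) and 0.80 in AMP (adjusted p = 9.32e-12), and Igf2r by 0.87 (adjusted p = 2.25e-12) and 1.10 (adjusted p = 2.72e-14). Igfbp3 fell over the same interval, by 0.73 in ENPP1+ATP (adjusted p = 4.85e-05) and 0.51 in AMP (adjusted p = 0.00182), opposite to its course in vehicle. Igfbp5 rose by 1.52 in ENPP1+ATP (adjusted p = 0.00321) and 1.43 in AMP (adjusted p = 0.00624). Without AMP replicate 1 of 24 hours the AMP values were -0.27 for Igfbp3 (adjusted p = 0.0842) and 0.98 for Igfbp5 (adjusted p = 0.0752), and without AMP replicate 2 of 24 hours Igfbp5 was 2.48 (adjusted p = 0.00115). Igf2 fell by 2.29 in AMP (adjusted p = 0.00103), from 47 and 97 reads to 9 and 12. Igfbp2 and Igfbp6 were called lower in ENPP1+ATP, and the size of such a change depends on the fitted prior count. Igfbp2 counts went from 11 and 14 to 1 and 0 reads, and Igfbp6 counts from 13 and 29 to 3 and 5 reads. The Igfbp2 value of -4.31 was -6.85 without ENPP1+ATP replicate 1 of 48 hours. It was -3.54 without replicate 2 of 48 hours, and its call was then lost. The Igfbp6 value of -2.26 was -1.64 without ENPP1+ATP replicate 2 of 24 hours, and its call was lost too.

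Tested as an interaction, the effect of the medium differed between the times for 5 members with ENPP1+ATP (4 higher and 1 lower; 30.0% of genes called) and for 7 with AMP (4 higher and 3 lower; 31.7% called). The effect on Igf2r moved up by 0.85 ± 0.07 (adjusted p = 3.76e-09) with ENPP1+ATP and 1.07 ± 0.07 (adjusted p = 7.75e-11) with AMP. For Igf1r the shift was 0.63 ± 0.07 (adjusted p = 4.4e-07) and 0.83 ± 0.07 (adjusted p = 4.18e-09). That on Igfbp3 shifted by -1.501 ± 0.17 (adjusted p = 2.3e-07) and -1.28 ± 0.17 (adjusted p = 1.73e-06). Both receptor effects thus moved upward between the times and the Igfbp3 effect moved downward.

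In NRVMs 6 of 10 members fell with ENPP1+ATP, 6 with AMP and 8 with ATP, and Igfbp6 was the member that rose with each. ENPP1+ATP lowered 6 members and raised 2 against a background of 56.0% of 13461 tested genes called and 27.4% called lower (member median, -0.42; all genes, 0.0079). AMP lowered 6 and raised 3, against 57.2% called and 28.0% called lower (member median, -0.55). ATP lowered 8 and raised 1, against 59.9% called and 29.7% called lower (member median, -0.79). ENPP1 alone gave 0 called members and 0% of genes called with edgeR, and 0 members with DESeq2. At an unadjusted p under 0.05 there were 3 members (Igf2r, Igfbp2 and Igfbp6) and 693 genes.

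Igf1 in NRVMs held 22.8, 23.4 and 23.1 CPM with vehicle, 3.67, 4.87 and 5.47 with ATP, 7.82, 11.1 and 8.08 with ENPP1+ATP, and 7.70, 7.40 and 10.9 with AMP. ATP gave the lowest values, and no library of the 3 media reached the vehicle range. Igf1 fell by 2.30 ± 0.20 with ATP (adjusted p = 3.77e-08), 1.35 ± 0.18 with ENPP1+ATP (adjusted p = 8.26e-06) and 1.42 ± 0.18 with AMP (adjusted p = 5.27e-06). Between ENPP1+ATP and ATP it was 0.94 ± 0.22 higher with ENPP1+ATP (adjusted p = 0.00397), whereas in CFs at 24 hours it was lower. Igf2 was far better detected here, at 80.8 to 95.3 CPM with vehicle, and fell by 0.78 with ATP (49.8 to 53.4 CPM, adjusted p = 0.000894). Its decrease with AMP (62.0 to 66.5 CPM; -0.46, adjusted p = 0.0211) was lost without AMP replicate 2, vehicle replicate 2 or vehicle replicate 3 (adjusted p, 0.0552 to 0.0718).

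The receptors parted in NRVMs at 24 hours. Igf1r held 75.8 to 84.0 CPM with vehicle, 46.9 to 51.4 with ATP, 54.7 to 59.1 with ENPP1+ATP and 48.2 to 55.4 with AMP. Igf2r held 1533 to 1604 CPM with vehicle, 1450 to 1586 with ATP, 1773 to 1796 with ENPP1+ATP and 1972 to 2143 with AMP. Igf1r libraries of the 3 media were all below vehicle, and Igf2r libraries of ENPP1+ATP and AMP were all above it. Igf1r fell by 0.68 (adjusted p = 2.28e-13), 0.50 (adjusted p = 1.03e-09) and 0.64 (adjusted p = 1.41e-12) with ATP, ENPP1+ATP and AMP. Igf2r rose by 0.19 (adjusted p = 0.000102) and 0.42 (adjusted p = 8.04e-12) with ENPP1+ATP and AMP.

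Among the binding proteins of NRVMs, Igfbp4, Igfbp7 and Igfbp2 fell, Igfbp6 rose, and Igfbp3 and Igfbp5 depended on the medium. Igfbp4 held 128, 140 and 145 CPM with vehicle against 38.4, 38.9 and 35.1 with ATP, 38.0, 50.4 and 37.4 with ENPP1+ATP, and 58.2, 62.0 and 74.5 with AMP. Its log2 fold changes were -1.87 ± 0.11 (adjusted p = 2.13e-08), -1.71 ± 0.11 (adjusted p = 5.76e-08) and -1.08 ± 0.11 (adjusted p = 2.81e-06). Igfbp7 fell by 0.80 with ATP (adjusted p = 2.21e-13), 1.11 with ENPP1+ATP (adjusted p = 1.94e-16) and 0.77 with AMP (adjusted p = 8.99e-13), from 189 to 202 CPM with vehicle to 110 to 116, 86.4 to 93.8 and 109 to 129 CPM. Igfbp2 dropped from 24.4 to 36.4 CPM to between 9.68 and 17.7 CPM in these 3 media, a decrease of 1.53 (adjusted p = 9.55e-05), 0.98 (adjusted p = 0.00215) and 1.04 (adjusted p = 0.00141). Igfbp6, which prefers IGF-2 over IGF-1, held 44.8, 47.5 and 42.8 CPM with vehicle, 85.8, 87.0 and 91.4 with ATP, 71.6, 81.0 and 66.4 with ENPP1+ATP, and 68.2, 74.8 and 68.8 with AMP. It was the member with a rise in all 3 media, by 0.97 ± 0.06 (adjusted p = 3.75e-17), 0.70 ± 0.06 (adjusted p = 1.68e-12) and 0.65 ± 0.06 (adjusted p = 1.43e-11).

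AMP alone raised Igfbp3 in NRVMs. Its libraries held 82.4, 91.4 and 81.5 CPM with vehicle, 56.1, 63.6 and 64.3 with ATP, 72.1, 68.7 and 74.0 with ENPP1+ATP, and 147, 151 and 156 with AMP. The AMP libraries stood above all others and the ATP and ENPP1+ATP libraries below vehicle. Igfbp3 rose by 0.83 ± 0.06 with AMP (adjusted p = 1.71e-12) and fell by 0.25 ± 0.07 with ENPP1+ATP (adjusted p = 0.00172) and 0.47 ± 0.07 with ATP (adjusted p = 3.92e-07). It was the widest of the 4 member differences between AMP and ENPP1+ATP (1.08 ± 0.06, adjusted p = 4.32e-13; 9.66% of genes called), ahead of Igfbp4 (0.63), Igfbp7 (0.35) and Igf2r (0.23), each higher with AMP. Between ENPP1+ATP and ATP 7 members were called, 5 higher and 2 lower (27.5% of genes called). The largest of these was Igfbp5, at 86.1 to 93.9 CPM with ENPP1+ATP against 33.5 to 48.7 with ATP (1.17 ± 0.18, adjusted p = 0.000535). Fibroblast markers moved in the same cultures, from 22900 to 24300 CPM with vehicle to 7670 to 8050 with ENPP1+ATP, 10800 to 11500 with AMP and 9890 to 11200 with ATP. Cardiomyocyte markers were 24200 to 25000 CPM with vehicle, 22100 to 23100 with ENPP1+ATP, 25000 to 26700 with AMP and 13900 to 14900 with ATP. The part of the fibroblast RNA in the NRVM results was not tested.

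**Figure D3:**
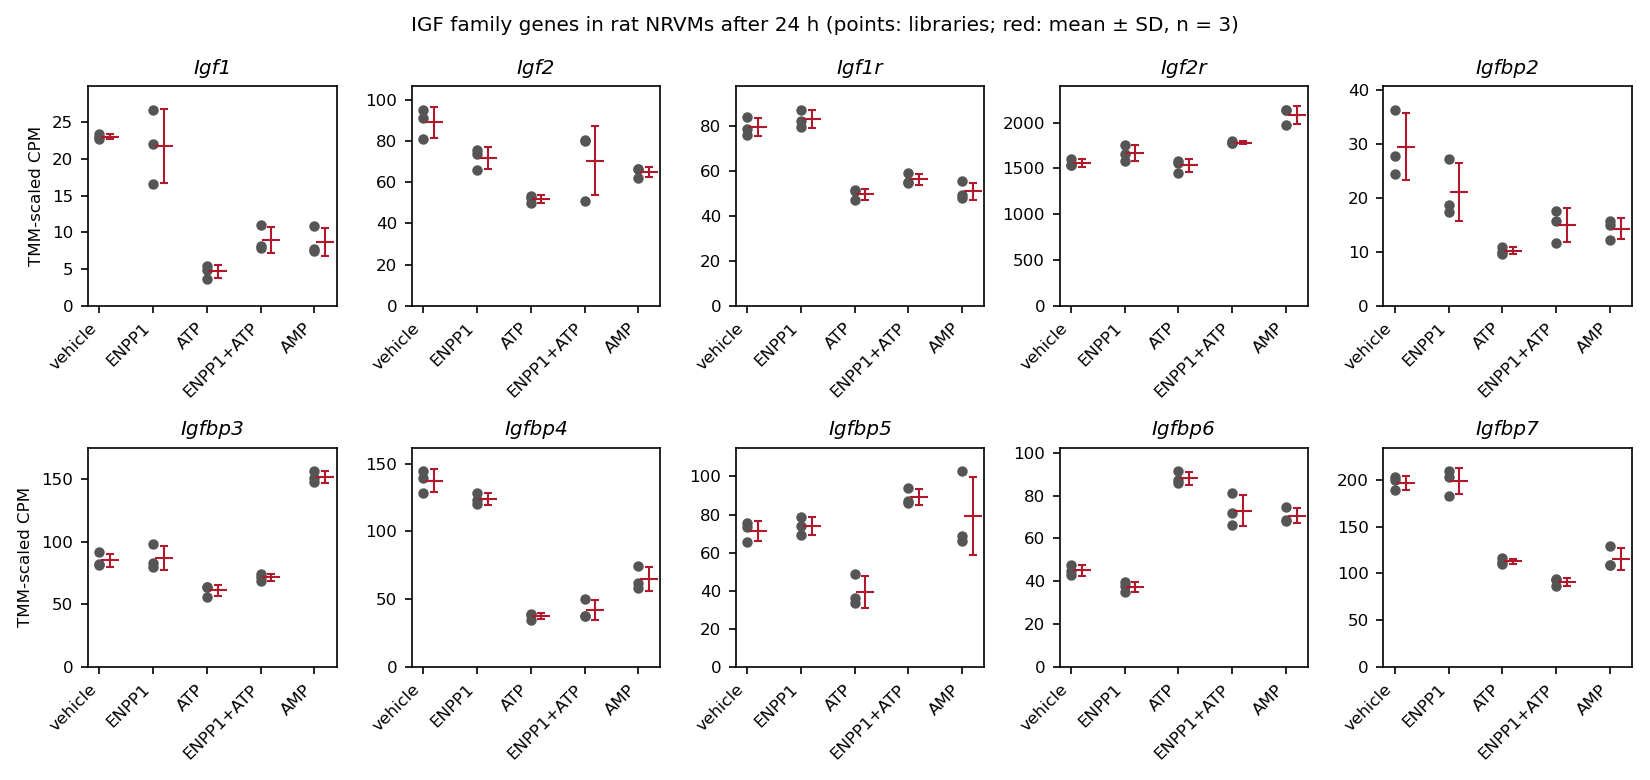
Levels of the 10 family genes in NRVMs after 24 hours in each of 5 media, in TMM-scaled CPM on a linear axis from 0, with points for libraries and red marks for the mean ± SD of 3. Igf1, Igf1r, Igfbp2, Igfbp4 and Igfbp7 are lower than vehicle with ATP, ENPP1+ATP and AMP, Igfbp6 is higher, and Igfbp3 is highest with AMP at 147 to 156 CPM.

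In the injured heart, the single-cell libraries showed which nonmyocytes hold each transcript. Cells formed 18 clusters, with the family genes and Enpp1 left out of the clustering, and clusters were named only from marker lists. Enpp1, the targeted gene, summed to 28.6 CPM over ENPP1CKO fibroblast-like cells against 129 CPM over control ones (log2 ratio, -2.18, 95% limits, -2.33 to -2.03), and it was lower in 5 of 5 fibroblast-like clusters. With 1 library per genotype there is no test of genotype, and all limits given for these libraries cover counting error only.

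Igf1 was found in fibroblast-like cells (250 CPM in control and 401 in ENPP1CKO) and in macrophage-like clusters, with the highest values in cluster 7 (528 and 507 CPM, leading genes Gpnmb and Mmp12) and cluster 6 (364 and 372 CPM, leading genes Il1b and Tnip3). Cluster 11 held less (96.0 and 102 CPM). Macrophage-like cells were compared by cluster because the leading genes of cluster 11 included the monocyte marker Chil3. That cluster held 914 control and 76 ENPP1CKO cells. Fibroblast-like cells held the most Igfbp4 (548 and 692 CPM) and Igfbp6 (119 and 353 CPM) among the named classes with at least 50 counts in these genes. Below that limit, neutrophil-like cells held 406 CPM of Igfbp6 in control on 33 counts, and 63.6 CPM in ENPP1CKO on 1 count. The unnamed cluster 16, with mesothelial and fibroblast markers, held more Igfbp6 than fibroblast-like cells (456 and 1012 CPM). Among classes, Igfbp5 was highest in smooth muscle or pericyte-like cells (429 and 896 CPM), and the endothelial-like cluster 15, led by Ccl21a and Nts, held a like level (499 and 900 CPM). Igfbp3 was led by endothelial-like cells (254 and 80.1 CPM), all of it in cluster 3. Igfbp7 in control was highest in smooth muscle or pericyte-like cells (7653 CPM), ahead of endothelial-like (4251 CPM) and fibroblast-like cells (3953 CPM). Igf2 had 4 counts in ENPP1CKO and 0 in control fibroblast-like cells.

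**Figure D4:**
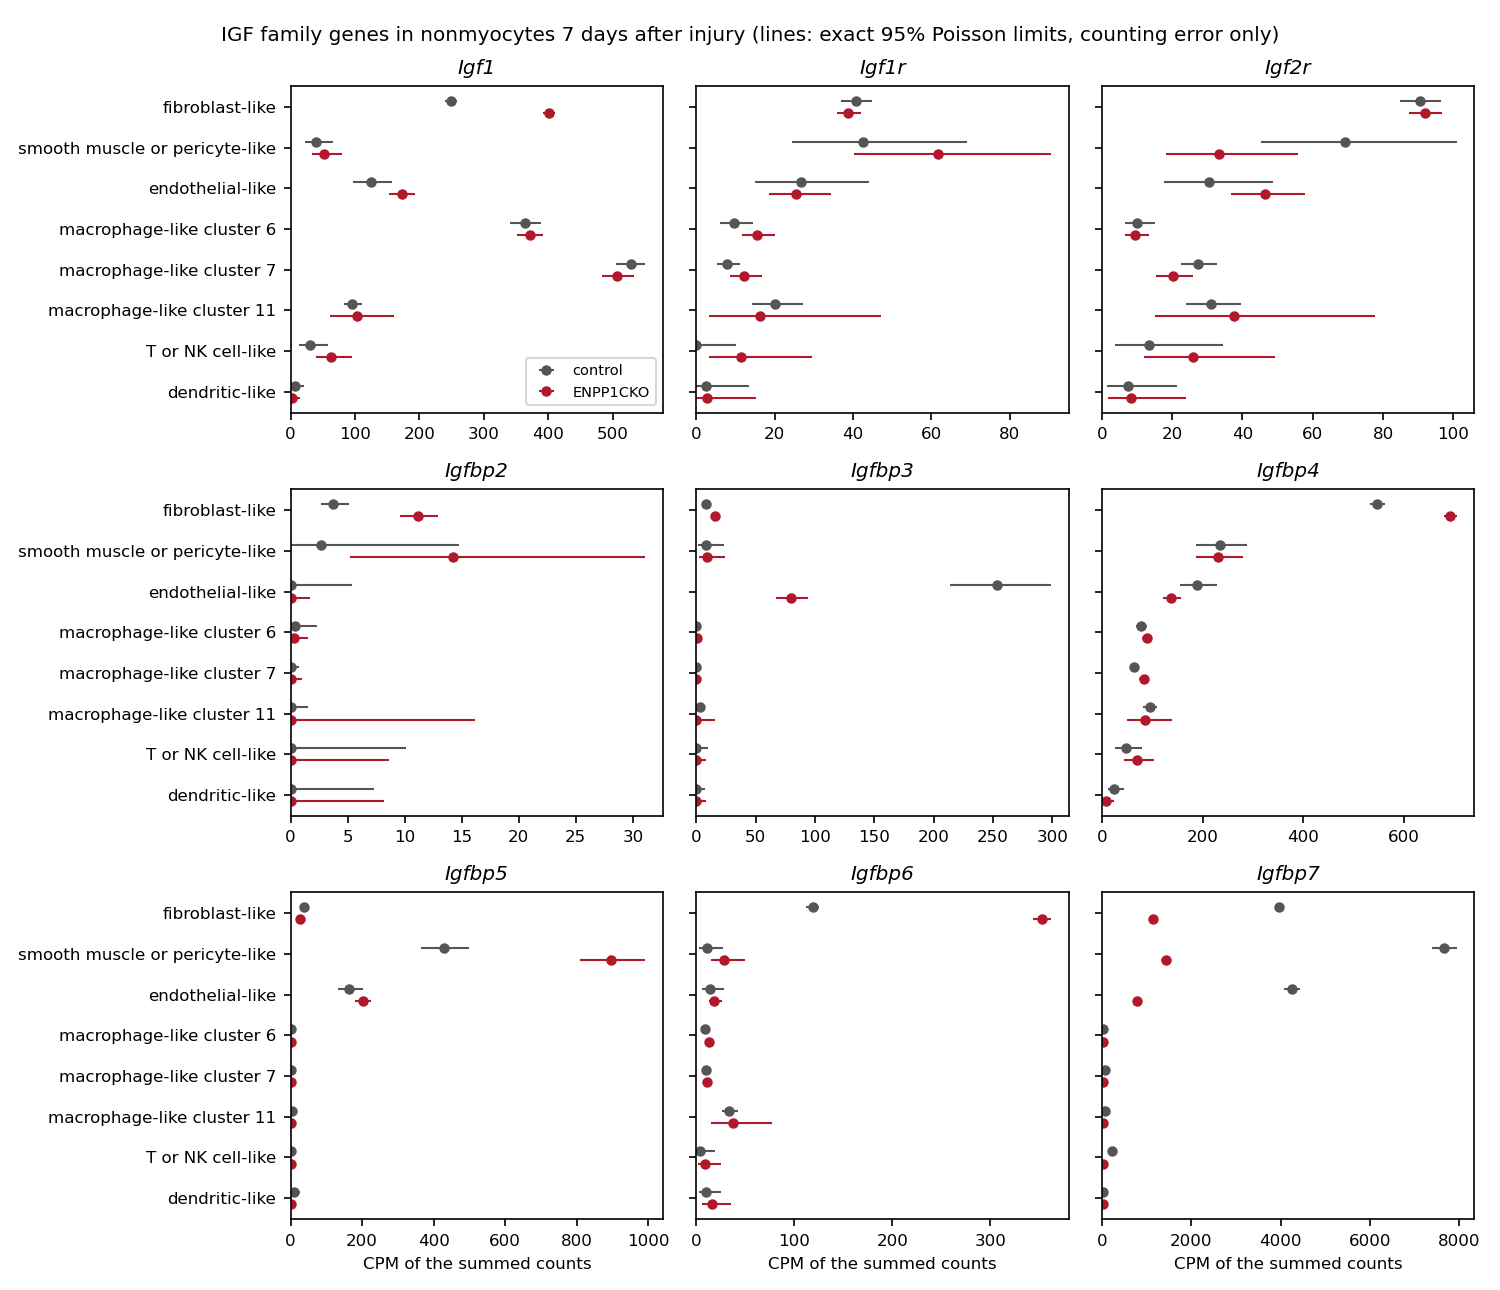
CPM of summed counts of 9 family genes (Igf2 is left out for lack of counts) in cell classes and macrophage-like clusters of the control (gray) and ENPP1CKO (red) libraries, on a linear axis from 0, with exact 95% Poisson limits as lines. Igf1 is shared by fibroblast-like and macrophage-like cells, and among the rows shown Igfbp3 is highest in endothelial-like cells and Igfbp5 in smooth muscle or pericyte-like cells. The control values of Igfbp7 stand above those of ENPP1CKO in fibroblast-like, endothelial-like and smooth muscle or pericyte-like cells.

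Igfbp7 was lower in ENPP1CKO in fibroblast-like, endothelial-like and smooth muscle or pericyte-like cells. Its level was 1136 CPM in ENPP1CKO against 3953 in control fibroblast-like cells (log2 ratio, -1.80, limits, -1.82 to -1.77), 785 against 4251 in endothelial-like cells (-2.44; -2.53 to -2.34), and 1434 against 7653 in smooth muscle or pericyte-like cells (-2.42; -2.55 to -2.29). The limits lay below 0 in 5 of 5 fibroblast-like clusters (log2 ratios, -2.25 to -1.64), and the endothelial-like clusters 3 and 15 stood at -2.52 and -2.78. Dendritic-like cells held 12 and 13 Igfbp7 counts and cardiomyocyte-like cells 5 and 1, too few for a ratio. In macrophage-like cells Igfbp7 stood at 1.81% (ENPP1CKO) and 1.65% (control) of its fibroblast-like level, and fibroblast markers at 1.68% and 1.99%, so Igfbp7 there was near the fibroblast RNA background and is not read as expression. T or NK cell-like cells gave 2.28% and 5.62% for Igfbp7 against 2.86% and 5.05% for fibroblast markers, again near the background.

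Among fibroblast-like cells, Igf1 and Igfbp6 were higher and Igfbp5 lower in ENPP1CKO. Of 9 members with enough counts, 3 differed at least 2-fold, Igfbp2 and Igfbp6 higher and Igfbp7 lower, against 3.38% of 11334 genes (member median, 0.34; all genes, 0.0090). Igf1 had a log2 ratio of 0.69 (limits, 0.62 to 0.75), and the limits lay above 0 in 4 of 5 fibroblast-like clusters (range, 0.36 to 0.98). In the macrophage-like clusters the limits for Igf1 lay above 0 in 0 of 4, with -0.06 (-0.15 to 0.04) in cluster 7 and 0.03 (-0.09 to 0.16) in cluster 6. In the dividing cluster 5 Igf1 was lower in ENPP1CKO, at 167 against 301 CPM (-0.85), and this was -0.22 when every cell was thinned to 1000 counts.

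Igfbp6 had a log2 ratio of 1.57 (limits, 1.48 to 1.66) in fibroblast-like cells, and it was at least 2-fold higher in 3 of 5 clusters. These were cluster 0, led by the scar genes C1qtnf3 and Col11a1 (309 against 84.9 CPM), cluster 1, led by Cst6 and Pla1a (463 against 174 CPM), and cluster 8, led by interferon-induced genes (488 against 113 CPM). Igfbp4 was modestly higher in 5 of 5 clusters (0.07 to 0.63). Igfbp5 was lower in 4 of 4 clusters with enough counts (-1.09 to -0.56), and the dividing cluster 12 went the other way on 21 and 13 counts (55.8 against 23.0 CPM, log2 ratio 1.28, limits 0.21 to 2.40). Igfbp3 went opposite ways, lower in cluster 0 (3.54 against 7.51 CPM; -1.08, limits, -1.82 to -0.37) and higher in cluster 2, led by Clec3b and Dpep1 (48.6 against 13.1 CPM; 1.89, limits, 1.29 to 2.54). The rise of Igfbp2 lay mainly in cluster 0 (19.6 against 4.54 CPM), and cluster 2 held 12 Igfbp2 counts in ENPP1CKO and 0 in control. Over the class Igfbp3 was 0.96 (limits, 0.60 to 1.33), just under 2-fold, and 1.73 (0.88 to 2.70) with cells thinned to 1000 counts. The class value for Igfbp2 was 1.57, and 0.79 (-0.31 to 2.05) when thinned. Igf1r and Igf2r differed by -0.07 (limits, -0.25 to 0.11) and 0.02 (-0.10 to 0.14).

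In endothelial-like cells, 2 of 7 members with enough counts differed at least 2-fold, both lower in ENPP1CKO, against 5.34% of 5206 genes. They were Igfbp7 and Igfbp3, the latter at 80.1 against 254 CPM (log2 ratio, -1.66, limits, -2.01 to -1.31). Igf1 was 0.46 higher (limits, 0.08 to 0.86), and 0.35 (-0.29 to 1.05) when every cell was thinned to 1000 counts. In cluster 15 it held 100 against 145.5 CPM, on 17 and 14 counts, too few for a ratio. In control the Igf1 level of the class was 50.1% of that in fibroblast-like cells, where fibroblast markers stood at 2.96%. Igfbp4 (-0.46) turned to 0.21 with doublets kept, and Igfbp5 (0.29) to -0.29 with cells thinned. For Igfbp4 the endothelial-like clusters went opposite ways, with -0.69 (limits, -1.06 to -0.30) in cluster 3 and 0.76 (-0.007 to 1.6) in cluster 15. When cells needed 500 or more genes and no more than 10% mitochondrial counts, Igfbp5 was 1.03 (limits, 0.63 to 1.46), past 2-fold. In smooth muscle or pericyte-like cells, 2 of 3 members with enough counts differed at least 2-fold against 7.26% of 2341 genes. Igfbp7 was lower there, and Igfbp5 was higher at 896 against 429 CPM (1.06, limits, 0.79 to 1.34). Fibroblast markers in that class summed to 4990 CPM in ENPP1CKO and 9810 CPM in control, and their part was not tested.

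**Figure D5:**
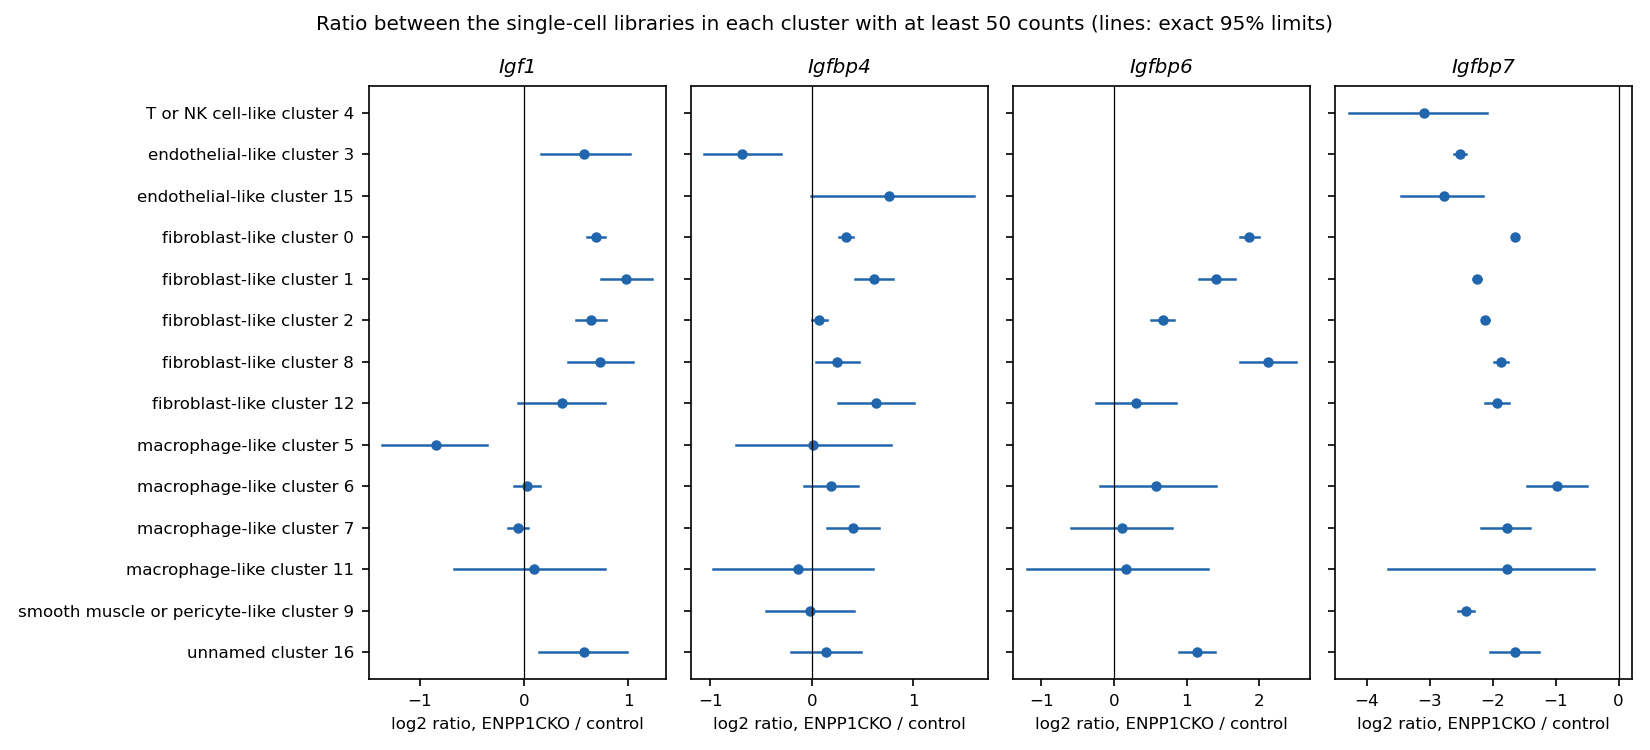
Log2 ratio of ENPP1CKO over control for Igf1, Igfbp4, Igfbp6 and Igfbp7 in each cluster with at least 50 counts of the gene, with exact 95% limits as lines. Igfbp7 lies left of 0 in all 13 clusters shown, of which the T or NK cell-like and macrophage-like ones are near the fibroblast RNA background, and Igf1 lies right of 0 in the fibroblast-like clusters and near 0 in macrophage-like clusters 6 and 7.

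Genes that act with the family were followed through a list of 93 pathway genes, of which 86 were tested in CFs and 81 in NRVMs. ENPP1+ATP raised 22 and lowered 33 of them in CFs at 24 hours, and AMP raised 19 and lowered 40, where 49.1% and 52.8% of all tested genes were called. The median log2 fold change of the list was -0.05 and -0.14. At 48 hours the counts were 25 and 28 for ENPP1+ATP and 29 and 28 for AMP, against 45.2% and 44.0% of all genes called. ATP raised 4 and lowered 9 at 24 hours, and raised 10 and lowered 3 at 48 hours, against 11.1% and 7.83%. Among insulin family receptors and surface receptors of the binding proteins, such as Lrp1 and integrins, 7 of 10 were lower and 0 higher for both ENPP1+ATP and AMP at 24 hours, where 25.3% and 27.5% of all genes were called lower. At 48 hours 5 were lower and 1 higher with each, against 24.4% and 22.9% called lower. Proteases that cleave the binding proteins and their inhibitors showed 4 of 9 lower with ENPP1+ATP and 6 of 9 with AMP at 24 hours, with 1 higher each, against the same 25.3% and 27.5% of all genes. In NRVMs the counts were 30 higher and 22 lower for ENPP1+ATP, 27 and 21 for AMP, and 28 and 24 for ATP, against 56.0%, 57.2% and 59.9% of all genes called. FOXO-responsive genes, which insulin and IGF signaling represses, included 9 of 10 higher and 0 lower with ENPP1+ATP in NRVMs, 9 higher and 1 lower with AMP, and 6 higher and 1 lower with ATP, where 3846, 3931 and 4064 of all 13461 genes were called higher. In CFs 5 of 9 were higher and 3 lower with ENPP1+ATP at 24 hours and 4 higher and 3 lower at 48 hours, and AMP gave 4 higher and 2 lower at each time. Insulin and IGF signaling was not measured, and what moved these genes was not tested. Of all 17879 genes, ENPP1+ATP raised 4265 and lowered 4522 at 24 hours and raised 3719 and lowered 4357 at 48 hours. AMP raised 4525 and lowered 4912 of them at 24 hours and raised 3767 and lowered 4099 at 48 hours.

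Txnip, a FOXO-responsive inhibitor of glucose uptake, had the lowest adjusted p of the list in several comparisons. In CFs at 24 hours Txnip averaged 111 CPM with vehicle, 619 with ENPP1+ATP (2.49, adjusted p = 8.26e-14) and 920 with AMP (3.06, adjusted p = 4.56e-15), and in NRVMs it rose by 1.78 with ENPP1+ATP (adjusted p = 5.42e-33). Foxo3, a transcription factor restrained by AKT, rose from 124 CPM in CFs at 48 hours to 271 with ENPP1+ATP (1.13, adjusted p = 1.65e-14) and 277 with AMP (1.17, adjusted p = 9.33e-15). Pdk4, a FOXO-responsive brake on glucose oxidation, rose at 48 hours from 18.5 CPM to 63.9 and 63.2 CPM. Grb14, an adaptor that inhibits insulin receptor signaling, fell from 24.4 to 10.1 CPM with ENPP1+ATP in CFs at 24 hours (-1.27, adjusted p = 7.26e-11). Eif4ebp1, a translation repressor controlled by mTOR, fell from 118 to 59.7 CPM (-0.98, adjusted p = 4.01e-11). Irs1, the adaptor that couples Igf1r to PI3 kinase, fell in NRVMs from 76.4 to 41.9 CPM with ENPP1+ATP (-0.87, adjusted p = 1.21e-17), and Grb10, an inhibitory adaptor, from 708 to 405 CPM (-0.81, adjusted p = 1.43e-21).

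For the 3 members with the widest range over the 10 CF groups, the genes of most similar pattern were listed by Pearson r of group means. Igf1 (range of mean log2 CPM, 2.22) was followed most closely by Lamc1 (r = 0.994), Pcdh18 (0.993) and Bdnf (0.992). Igfbp5 (range, 2.97) was followed by Cdc16 (0.987), Srpx2 (0.984) and Smad5 (0.980), and Igfbp2 (range, 2.70), whose counts were near 0, by Strn (0.9753), Tead4 (0.957) and Gm21092 (0.955). These are descriptions over 10 groups that share libraries, media and depth.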

How the data were processed

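Bulk RNA-Seq of CFs and NRVMs and single-cell RNA-Seq of nonmyocytes were analysed from the tables of the authors. The submitters' processing notes name STAR 2.5.3a, Cell Ranger and the builds mm10 and rn6. How strand was treated was not given in the sources used here. The deposited values are raw counts per gene, or per gene and cell barcode, and no authors' normalization was present. The 10 members, the pathway and marker lists and the comparisons were chosen with earlier results of these data known. The organism label of the NRVM libraries reads mouse, and their cell type and strain labels name rat.

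Bulk counts were filtered with filterByExpr, scaled by TMM and fitted with edgeR 4.0.16 (robust quasi-likelihood) under R 4.3.3, in 1 fit of the 20 CF libraries and 1 fit of the 15 NRVM libraries, with Benjamini-Hochberg adjustment over all tested genes and a threshold of 0.05. The fit was tested on simulated data. No replicate pair held identical counts. Two-sided 95% intervals are from the fit. Leaving out a library leaves a group with 1 CF library, which is assumed to vary like the other groups.

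Barcodes needed 200 or more genes and no more than 20% mitochondrial counts, doublets called by Scrublet (2.02% of ENPP1CKO and 1.29% of control barcodes) were removed, and cells were clustered in scanpy 1.11.5 (2000 variable genes, 30 components, 15 neighbours, Leiden resolution 0.5). Clusters were named for the marker list of which the largest share was met, a marker counting where at least 10% of the cells held it and its CPM was 2 times or more its median over clusters. At least 3 such markers and a lead of 0.15 in that share over the next list were needed. Cluster 8 was led by interferon-induced genes, clusters 5 and 12 by cell cycle genes, and cluster 16, with mesothelial and fibroblast markers, was left unnamed. Counts were summed by class and library. Limits are exact (Poisson for levels, conditional binomial for ratios), ratios needed 50 counts, and at least 2-fold was the size rule. Named genes were all members, the pathway genes of lowest adjusted p with mean log2 CPM of at least 2, and the 3 genes of highest Pearson r with the 3 widest-ranging members. Promoters are from RefSeq, in which all 10 members matched. Alternatives were other scalings, no filter, DESeq2 1.42.0, a replicate block, fits of the compared groups alone, libraries left out, and for single cells thinning, scaling, cell filters, doublets kept and other clusterings.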

Additional observations from a re-analysis of the deposited data

Results flagged for a closer look

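The effect of conditioned medium on CFs differed between 24 and 48 hours by the interaction test for several members. With ENPP1+ATP the difference in log2 fold change was 0.67 for Igf1 (adjusted p = 0.014), 0.63 for Igf1r, 0.85 for Igf2r, -1.50 for Igfbp3 and 1.46 for Igfbp5 (adjusted p = 0.0321). With AMP it was 1.04 for Igf1, -2.65 for Igf2 (adjusted p = 0.00917), 0.83 for Igf1r, 1.07 for Igf2r, -1.28 for Igfbp3, -0.29 for Igfbp4 (adjusted p = 0.043) and 1.37 for Igfbp5 (adjusted p = 0.0471). The values for Igf1r, Igf2r and Igfbp3 kept their call without any single library. Without vehicle replicate 1 of 24 hours, Igfbp5 moved to 0.78 with ENPP1+ATP (adjusted p = 0.323) and 0.70 with AMP (adjusted p = 0.385), and without AMP replicate 2 of 24 hours it was 2.43 with AMP (adjusted p = 0.00535). Igf1 with ENPP1+ATP was 0.45 (adjusted p = 0.136) without ENPP1+ATP replicate 1 of 24 hours and 0.40 (adjusted p = 0.159) without that of 48 hours, and its call was also lost without vehicle replicate 2 of 24 hours (0.61) or vehicle replicate 1 of 48 hours (0.57). Igfbp4 with AMP lost its call without AMP replicate 2 of either time or any vehicle library (adjusted p, 0.08 to 0.3). Igf2 with AMP was -2.04 (adjusted p = 0.0995) without vehicle replicate 2 of 48 hours.

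At 24 hours some members lay on opposite sides of vehicle in CFs and NRVMs in every library, and the difference between the cell types was not tested, since the tables are of different species and were scaled separately. With ENPP1+ATP these were Igf2 (log2 fold change of 1.81 in CFs and -0.34 in NRVMs), Igf2r (-0.36 and 0.19), Igfbp2 (1.28 and -0.98) and Igfbp5 (-2.23 and 0.32). With AMP they were Igf2 (2.19 and -0.46), Igf2r (-0.49 and 0.42), Igfbp2 (0.72 and -1.04) and Igfbp3 (-0.72 and 0.83). Igf2 did the same with ATP (0.50 and -0.78) and with ENPP1 (0.52 and -0.31). With ENPP1, 0% of all genes were called against vehicle in either cell type. The share of all genes that met this rule is not given here, so the list only describes the members. In CFs Igf2 rests on 9 to 97 reads per library and Igfbp2 on 0 to 14, and CF values of Igfbp2, and of Igf2 with ATP or ENPP1, were not called. In NRVMs, Igf2 with ENPP1+ATP or ENPP1 and Igfbp5 with ENPP1+ATP were not called.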

How the results depend on the processing

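No called bulk value of a member reversed its direction under the alternatives run. Of 702 alternative values for 117 called results, 680 kept their call and 22 lost it, and with 1 library left out 511 of 590 kept it. Of 152 single-cell values 17 moved beyond their counting limits, most of them by thinning to 1000 counts, and in endothelial-like cells Igfbp4 (-0.46) turned to 0.21 with doublets kept and Igfbp5 (0.29) to -0.29 with thinning and 1.03 under the stricter cell filter. Member counts stayed within 1.5 times of the reported ones in 151 of 156 alternatives. The exceptions were ENPP1 in CFs at 48 hours, with 1 member without a filter on low counts. ENPP1 in NRVMs had 1 without that filter and 1 when only the compared groups were fitted. In such fits AMP against ENPP1+ATP in CFs at 24 hours had 0 members, and 48 against 24 hours in ENPP1+ATP had 5. With 1 library left out, counts ranged from 0 to 2 for AMP against ENPP1+ATP at 24 hours, 4 to 5 for ENPP1+ATP against ATP at 24 hours and 4 to 6 at 48 hours, 3 to 4 for ATP at 48 hours, 5 to 7 for 48 against 24 hours in ENPP1+ATP, 3 to 6 for the time difference with ENPP1+ATP and 4 to 6 with AMP.

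Replicate numbers did not pair the libraries (correlations of deviations, -0.106 to 0.132 between CF groups of the same time, -0.112 to 0.277 across times, and -0.166 to 0.124 in NRVMs). A replicate block moved no member count by over 1.5 times and ended 4 calls: Igfbp6 in ENPP1+ATP against ATP at 48 hours (-2.13, adjusted p = 0.0596), Igfbp6 (-2.09, adjusted p = 0.0959) and Igfbp4 (-0.23, adjusted p = 0.0504) between times in ENPP1+ATP and AMP, and the time difference of Igfbp5 with AMP (1.31, adjusted p = 0.0588).

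Scaling by library totals moved the share of called genes that were higher by over 10 points, from 47.9% to 37.4% (AMP, 48 hours), 68.3% to 52.3% (ATP, 48 hours), 34.5% to 64.2% (vehicle over time), 47.9% to 34.9% and 51.8% to 37.4% (ENPP1+ATP and AMP over time), 50.3% to 29.2% and 54.6% to 31.6% (their time differences), and in NRVMs 50.4% to 63.9% (ATP), 51.2% to 35.6% (ENPP1+ATP against ATP) and 60.2% to 33.1% (AMP against ENPP1+ATP). The median of all genes shifted by -0.131 and -0.143 for the time differences and 0.107 for ATP in NRVMs. Causes were not tested. Depth limits Igf2, Igfbp2 and Igfbp6 in CFs and Igf2 in single cells. Alternatives that cluster anew give no value for the individual macrophage-like clusters.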
